A study of Mus musculus with 12 samples.

Results

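The replication-dependent histone genes were described in the hippocampus of mice given a mixture of Gulf War toxicants and of control mice. They were taken by name: symbols that begin with Hist1h to Hist4h or, in the newer naming, H1f1 to H1f5 and the numbered H2ac, H2bc, H3c and H4c genes, without pseudogenes. The rule took 63 of the 41743 genes in the expression table, namely 5 linker histone H1 genes, 17 H2A, 17 H2B, 12 H3 and 12 H4 genes. The toxicant group was 6 male C57Bl/6 mice, 12 weeks old, injected subcutaneously every weekday for 2 weeks with pyridostigmine bromide at 2.5 mg/kg, the organophosphate insecticide chlorpyrifos at 12.5 mg/kg and the insect repellent DEET at 7.5 mg/kg. The control group was 6 male mice of the same strain and age that received vehicle. Hippocampi were taken at the end of the exposure. Poly(A)-selected RNA was sequenced as single reads of 75 bases, and each value is an RPKM, the reads of a gene per kilobase of its exons, scaled to the depth of the library.

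Core histones H2A, H2B, H3 and H4 form the protein spool of the nucleosome, and linker histone H1 binds where DNA enters and leaves it. Replication-dependent histone genes supply these proteins while DNA is copied, so their RNA is abundant in dividing cells and scarce in neurons, which no longer divide. In animals most of these mRNAs end in a short hairpin in place of a poly(A) tail, which the stem-loop binding protein Slbp recognises, but some histone genes also make polyadenylated mRNA, described mainly in cells that have left the cell cycle. A library selected for poly(A) therefore sees these genes only in part.

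Control 4 and control 5 were the same column under both names and count once, as control 4. This left 6 toxicant and 5 control libraries of 21.5 to 34.9 M reads, a depth recovered from the RPKM values. The share of these reads that was counted to annotated genes was recovered in the same way. It was 76.8 to 83.8% in toxicant libraries and 78.4 to 89.5% in control libraries, and control 2 held the lowest share of its group. It is called the gene-read share, and whether reads in introns were counted is not given in the sources used here. The labels name different animals in each group and no batch, and p-values measure the spread between these animals. Whole tissue was sequenced, so fewer cells of a type and less RNA per cell cannot be told apart.

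The hairpin was present in the annotated transcripts of most histone genes. A 16-base pattern, GGNNNTTNNNANNNCC with the stem bases able to pair, was searched on the transcript strand in the first 200 bases after the stop codon of the GENCODE M21 models (GRCm38). It was found in 42 of the 63 genes, 21 to 58 bases after the stop codon (median 31). Over all 21045 genes with an annotated 3′ UTR it was found in 69 (0.328%), and the 27 outside the 63 included the histone genes H2ax, H2aw, H2bu2, H4f16 and H1f6. The 42 hairpins had 8 different sequences, and 24 genes shared 1 of them, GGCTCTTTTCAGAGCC. The 10 hairpins of the 13 best expressed histone genes are shown to compare their stems, with the 16 bases of the hairpin in capitals and up to 5 flanking bases on each side.
H2ac19, chr3:96239784-96239799, minus strand: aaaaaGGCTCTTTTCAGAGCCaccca
H2ac18, chr3:96246032-96246047, plus strand: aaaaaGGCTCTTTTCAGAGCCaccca
Hist1h2ap, chr13:21833029-21833044, minus strand: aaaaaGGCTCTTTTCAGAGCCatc
H2bc8, chr13:23571843-23571858, plus strand: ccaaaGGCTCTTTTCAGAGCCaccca
H2bc6, chr13:23585531-23585546, minus strand: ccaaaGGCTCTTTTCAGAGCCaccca
H1f2, chr13:23739512-23739527, plus strand: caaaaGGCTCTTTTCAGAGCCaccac
H1f4, chr13:23621782-23621797, minus strand: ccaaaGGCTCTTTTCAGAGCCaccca
H3c15, chr3:96238485-96238500, minus strand: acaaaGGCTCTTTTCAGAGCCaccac
H4c9, chr13:22040966-22040981, minus strand: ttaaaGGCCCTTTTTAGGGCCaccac
H4c8, chr13:23531458-23531473, plus strand: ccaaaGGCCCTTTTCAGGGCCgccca
The H2A, H2B, H1 and H3 hairpins in these lines were identical over all 16 bases, while those of H4c9 and H4c8 carried a stem of their own, GGCCC paired with GGGCC. H2bc4 and H2bc21 had no match although their 3′ UTRs were annotated over 742 and 2192 bases, and the H2bc4 transcript is spliced from 2 exons. H4c12 had no match, but its model stops at the stop codon, so the hairpin could not have been seen there.

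Most histone reads came from gene models that reach past the hairpin or lack it. In 23 genes the annotated transcript ended within 100 bases of the hairpin, and these held 22.02% of the histone reads. In 19 genes the transcript ran at least 100 bases past it, and these held 35.2%. A further 4 genes, H2bc4, H2bc21, Hist1h2bq and Hist1h2br, had no hairpin match and a longer 3′ UTR, and held 41.5%, most of it from H2bc4. The last 17 genes had no match and less than 60 bases of annotated UTR, and held 1.32%. Reads grow with the length of a model, and RPKM corrects for it. In RPKM the first 23 genes had a median sum of 32.2 in toxicant and 41.3 in control libraries. The 19 genes had 18.7 and 21.4, the 4 genes 25.2 and 29.8, and all 63 genes 79.5 and 92.7. By RPKM the genes that ended within 100 bases of the hairpin were thus the largest class. A poly(A) signal, AATAAA or ATTAAA, was searched in the last 40 bases of the transcript. It was found in 8 of the 19 genes that ran past the hairpin and in 1 of the 23 that ended at it. It was also found in 3 of the 4 genes with a longer UTR and no match, but not in H2bc4, and in 0 of the last 17. Reads were assigned to whole gene models, so which 3′ end each read came from was not tested.

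**Figure D1:**
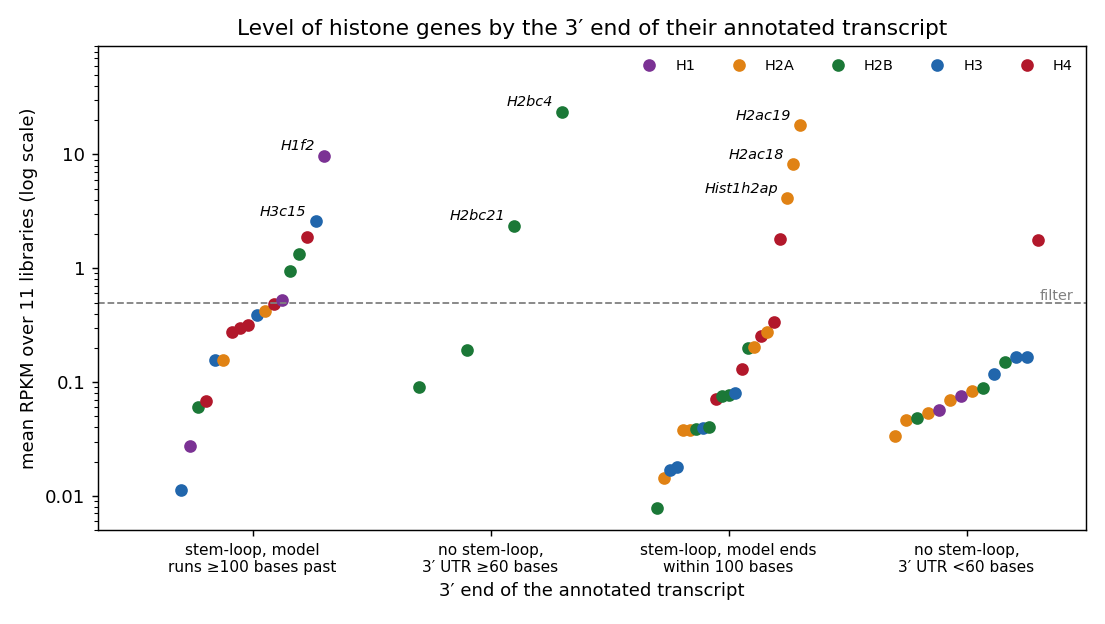
Mean RPKM over 11 libraries (vertical axis, log scale) of each histone gene with any read, by the 3′ end of its annotated transcript, coloured by histone family. H2bc4 leads the genes without a hairpin match, H1f2 and H3c15 those that run past it, and H2ac19, H2ac18 and Hist1h2ap those that end within 100 bases of it; the dashed line is the filter at 0.5 RPKM.

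The hippocampus expressed a few histone genes at moderate levels and the rest close to the limit of detection. All 63 lay in 2 clusters, 53 on chromosome 13 between 21715763 and 23934851 and 10 on chromosome 3 between 96219865 and 96270132. H2bc4, an H2B gene, averaged 23.7 RPKM over the 11 libraries and gave 28.5% of the summed histone level, followed by the H2A gene H2ac19 with 18.1 RPKM, the linker histone gene H1f2 with 9.79 RPKM and the H2A gene H2ac18 with 8.22 RPKM. These 4 genes made up 71.9% of the sum. H2bc4 lay above H2ac19 and H2ac19 above H1f2 in each of the 11 libraries, while H2ac18 lay above H1f2 in toxicant 1, 3 and 4 and below it in the others.

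Only 13 of the 63 genes reached the filter of 0.5 RPKM set for testing, and they held 93.1% of the histone reads. The other 50 genes had a mean of at most 0.489 RPKM, and 21 of the 63 averaged under 1 read per library. H3c14, Hist1h2an, H2bc1 and H2ac1 were listed at 0 in every library, and H2bc1 and H2ac1 are the testis forms of H2B and H2A. All 63 genes together took 0.00818 to 0.0107% of the gene reads of a toxicant library and 0.00866 to 0.0115% of those of a control library.

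Several histone genes are near copies of each other, and this limits how their reads can be told apart. More than 50% of the 75-base stretches of the transcript were also present in another histone gene for 27 of the 63 genes. For H2ac19 the share was 100% and for H2ac18 88.7%, and each was the closest histone gene of the other. H2bc21 shared none, H1f2 6.66% and H2bc4 27.1%. How the authors divided reads that match several places is not given in the sources used here. H1f4 and H2bc6 overlap on the same strand, and H2ac18 overlaps Gm20634 on the same strand and, like H2ac19, a predicted gene on the other strand. Strandedness is not stated, so reads of overlapping genes on opposite strands cannot be told apart.

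The promoters are shown for the twin H2A genes, whose reads could not be separated, and for H2bc8, the tested member with the largest positive fold change. They are RefSeq promoters (GRCm38.p6) from 250 bases before to 50 bases after the annotated start, with motifs found on either strand in capitals. The motifs were the CCAAT box, whose reverse complement reads ATTGG, the TATA sequence TATAAA, whose other strand reads TTTATA, and the octamer ATTTGCAT, whose other strand reads ATGCAAAT.
H2ac18, chr3:96245247-96245546, plus strand: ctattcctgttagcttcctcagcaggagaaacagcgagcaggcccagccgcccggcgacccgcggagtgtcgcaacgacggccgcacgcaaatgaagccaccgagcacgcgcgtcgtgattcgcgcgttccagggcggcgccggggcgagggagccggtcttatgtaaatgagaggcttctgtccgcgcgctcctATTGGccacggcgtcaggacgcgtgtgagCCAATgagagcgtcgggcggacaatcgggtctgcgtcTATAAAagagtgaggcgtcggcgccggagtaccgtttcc
H2ac19, chr3:96240325-96240624, minus strand: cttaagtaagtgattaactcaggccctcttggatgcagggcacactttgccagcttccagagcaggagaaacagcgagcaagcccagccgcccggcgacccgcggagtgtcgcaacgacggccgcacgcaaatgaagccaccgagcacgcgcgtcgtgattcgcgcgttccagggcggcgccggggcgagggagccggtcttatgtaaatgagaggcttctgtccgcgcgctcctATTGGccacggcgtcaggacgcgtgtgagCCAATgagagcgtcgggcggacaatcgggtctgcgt
H2bc8, chr13:23571150-23571449, plus strand: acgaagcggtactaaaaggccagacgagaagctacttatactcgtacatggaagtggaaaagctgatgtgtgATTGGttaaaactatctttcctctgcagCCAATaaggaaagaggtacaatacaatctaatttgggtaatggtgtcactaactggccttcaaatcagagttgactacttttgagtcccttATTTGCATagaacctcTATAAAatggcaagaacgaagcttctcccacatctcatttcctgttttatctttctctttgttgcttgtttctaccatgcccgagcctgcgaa
The twin promoters shared an unbroken run of 219 bases. The run ended at the edge of the H2ac19 window, just before TATAAA in H2ac18. The window therefore does not show whether H2ac19 holds TATAAA there. Members were counted by gene, with a match in any promoter of the gene, and the background by single promoter. Of the 57 members with a promoter in the table, 49 (86.0%) held CCAAT on either strand, against 37.4% of all 32851 promoters. Only 3 of 11 H4 genes did. TATAAA was present in 34 of 57 (59.6%), against 13.6% of all promoters. The octamer ATTTGCAT, known as the Oct1 element of H2B promoters, was present in 7 of 15 H2B and 6 of 16 H2A promoters and in none of the H1, H3 or H4 promoters, against 1.74% of all. These matches describe the letters in the window.

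Toxicant exposure was followed by no histone gene change that passed the threshold. Among the 13 tested genes, limma on log2(RPKM + 0.5) gave 0 calls in either direction at an adjusted p under 0.05, and 0% of the 13493 genes tested were called in each direction. Limma voom on the recovered reads and an exact rank-sum permutation test also called 0 of them. At an unadjusted p under 0.05, 1 member was higher in toxicant hippocampi (3.33% of all tested genes were) and 2 were lower (17% of all tested genes were). Median-ratio scaling turned the split over all genes at that p, 449 higher and 2288 lower, into 1161 higher and 708 lower. None of the 13 genes had libraries that did not overlap, while 2.03% of all tested genes lay lower and 0.111% higher in all toxicant libraries. The fold changes were negative for 10 of the 13 genes and positive for 3, and for 9 and 4 under median-ratio scaling. Their median was -0.21 on the log2 scale, beside -0.11 over all tested genes. With the gene-read share added to the model, the median of the 13 was 0.01, and 7 were positive and 6 negative, beside a median of -0.03 over all genes. Under median-ratio scaling the median of the 13 was -0.10, beside -0.02 over all genes. The fold changes of log2(RPKM + 0.5) understate the change of genes near 0.5 RPKM.

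**Figure D2:**
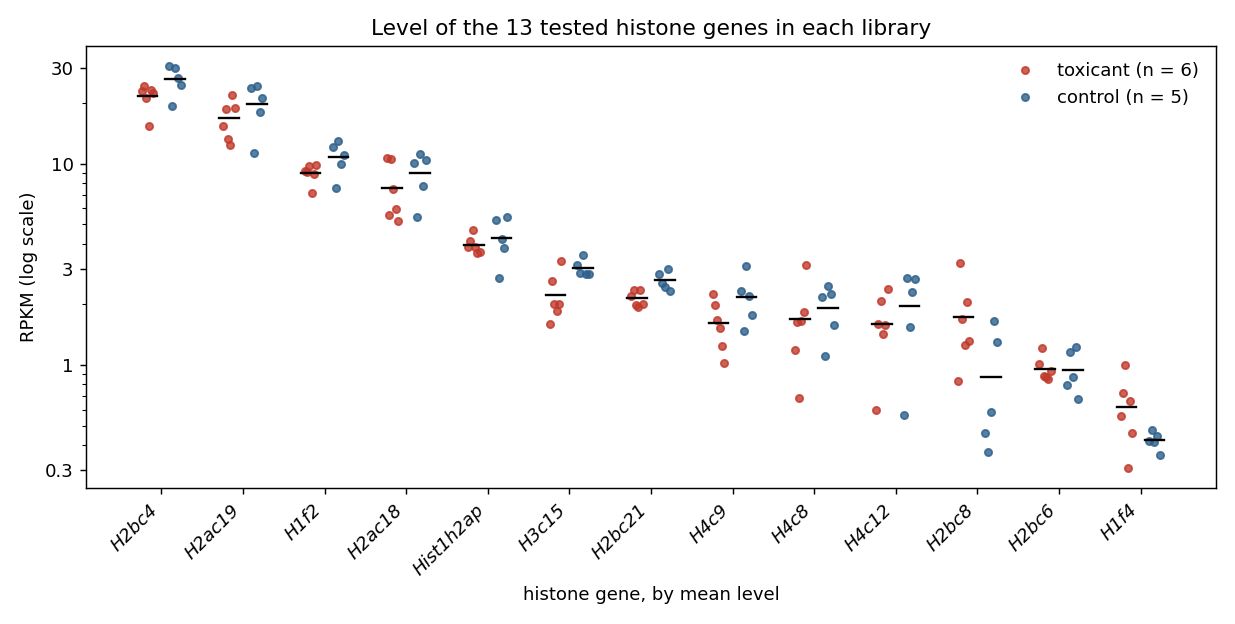
RPKM (log scale) of the 13 tested histone genes in each toxicant and control library, with the mean of each group as a bar. The groups overlapped in all 13 genes. Control values lay mostly above toxicant values in several genes, among them H2bc4, H1f2, H3c15 and H2bc21, and the reverse held for H2bc8.

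The best expressed H2B and H2A genes were lowest in the same libraries. H2bc4 had 23.0, 24.3, 21.3, 15.4, 23.2 and 22.5 RPKM in toxicant libraries 1 to 6, against 30.6, 19.3, 30.02, 26.6 and 24.7 RPKM in control libraries 1, 2, 3, 4 and 6. Toxicant 4 and control 2 were the lowest of their groups, as they were for H2ac19, and control 2 lay below 5 of the 6 toxicant libraries. All toxicant libraries lay below every control library other than control 2. The means were 21.6 ± 3.20 RPKM in toxicant and 26.3 ± 4.56 RPKM in control hippocampi (SD, n = 6 and 5). On the log2 scale the difference was -0.27 ± 0.14 (SE), with a limma adjusted p of 0.260.

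H2ac19 had 15.4, 18.8, 13.2, 12.4, 21.9 and 19.03 RPKM in toxicant libraries and 23.8, 11.4, 24.3, 18.1 and 21.2 RPKM in control libraries. Its near copy H2ac18 had 10.7, 5.54, 10.5, 7.51, 5.96 and 5.17 RPKM in toxicant libraries and 10.1, 5.45, 11.2, 7.76 and 10.4 RPKM in control libraries. The toxicant libraries that were high in H2ac18, libraries 1 and 3, were not the ones high in H2ac19, libraries 5, 6 and 2. H2ac18 took 23.2 to 46.9% of the reads of the pair in toxicant libraries and 31.9 to 35.3% in control libraries. Summed over both genes, toxicant libraries had 26.2, 24.3, 23.8, 19.9, 27.8 and 24.2 RPKM and control libraries 33.9, 16.8, 35.5, 25.8 and 31.6 RPKM. The sum thus ran over a narrower range in toxicant libraries, and control 2 was the lowest of all 11. The log2 fold changes were -0.21 ± 0.20 for H2ac19 (limma adjusted p = 0.468) and -0.25 ± 0.22 for H2ac18 (adjusted p = 0.443).

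The third expressed H2A gene, Hist1h2ap, had 3.58 to 4.69 RPKM in toxicant libraries (median 3.85) and 5.27, 2.71, 4.24, 3.83 and 5.42 RPKM in control libraries. Its log2 fold change was -0.08 ± 0.14 (limma adjusted p = 0.708), and its sign was positive under median-ratio scaling (0.03) and with the gene-read share in the model (0.14).

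H2bc21 showed a small and even difference. This gene encodes an H2B variant, H2BE, described in mouse olfactory neurons. It had 2.20, 2.36, 1.99, 1.95, 2.35 and 2.01 RPKM in toxicant libraries, against 2.84, 2.56, 2.45, 3.02 and 2.34 RPKM in control libraries. Of the 6 toxicant libraries 4 lay below the lowest control library, and the other two lay just above it. The means were 2.14 ± 0.188 RPKM in toxicant and 2.64 ± 0.280 RPKM in control hippocampi, and the log2 fold change was -0.25 ± 0.08 (limma adjusted p = 0.207). Its value with the gene-read share in the model was also -0.25 (limma adjusted p = 0.289), while under median-ratio scaling it was -0.16 (adjusted p = 0.396). None of its 75-base stretches occurred in another transcript.

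H2bc8, a further H2B gene, was the tested member with the largest positive fold change. It had 0.829, 3.21, 1.70, 1.26, 2.06 and 1.31 RPKM in toxicant libraries, from 11, 44, 26, 21, 31 and 23 reads, against 0.457, 0.369, 0.584, 1.66 and 1.3 RPKM in control libraries, from 8, 7, 9, 30 and 28 reads. Toxicant 2, 5 and 3 lay above every control library, while control libraries 4 and 6 lay within the toxicant range. The log2 fold change was 0.72 ± 0.28 (limma adjusted p = 0.225), and it was 0.57 without control 2 (adjusted p = 0.116). The sequence of H2bc8 was shared with other histone genes over 47.4% of its 75-base stretches. The remaining tested H2B gene, H2bc6, averaged 0.959 ± 0.135 RPKM in toxicant and 0.949 ± 0.240 RPKM in control hippocampi, and its log2 fold change of 0.02 ± 0.11 changed sign with the gene-read share in the model (-0.12).

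The linker histone genes differed from each other in level and sign. H1f2 had 9.16, 9.05, 9.78, 7.16, 8.85 and 9.90 RPKM in toxicant libraries, against 12.2, 7.61, 12.97, 9.98 and 11.1 RPKM in control libraries. All toxicant libraries lay below every control library other than control 2. The log2 fold change was -0.23 ± 0.13 (limma adjusted p = 0.272), and with the gene-read share in the model it was 0.02. H1f4 averaged 0.618 ± 0.240 RPKM in toxicant and 0.422 ± 0.0428 RPKM in control hippocampi, with 4 of 6 toxicant libraries above the highest control library (log2 fold change 0.25 ± 0.14, limma adjusted p = 0.277). H1f1, H1f3 and H1f5 were under the filter, with group means of 0.0229 to 0.112 RPKM.

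H3c15 was the only H3 gene past the filter. It had 1.60, 2.61, 2.02, 1.85, 2.01 and 3.28 RPKM in toxicant libraries, against 3.15, 2.88, 3.54, 2.82 and 2.84 RPKM in control libraries. Of the 6 toxicant libraries 5 lay below the lowest control library, while toxicant 6 lay within the control range. The means were 2.23 ± 0.615 RPKM in toxicant and 3.04 ± 0.306 RPKM in control hippocampi, and the log2 fold change was -0.40 ± 0.13 (limma adjusted p = 0.214). With the gene-read share in the model it was -0.34 (limma adjusted p = 0.379). Over 62.6% of its 75-base stretches H3c15 matched other histone genes, the closest being H3c14, which was listed at 0 in every library. The 75-base stretches of H3c14 were 100% shared with other transcripts, the closest being Gm20634, which overlaps it on the same strand and averaged 3.25 RPKM, so the 0 of H3c14 does not show that it was not expressed.

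The H4 genes were low and variable. H4c9 averaged 1.61 ± 0.455 RPKM in toxicant and 2.18 ± 0.612 RPKM in control hippocampi (log2 fold change -0.34 ± 0.17, limma adjusted p = 0.260). H4c8 had 0.687 to 3.15 RPKM in toxicant libraries (median 1.64) and 1.11 to 2.47 RPKM in control libraries (median 2.18). H4c12 had 0.597 to 2.37 RPKM in toxicant libraries (median 1.59) and 0.566 to 2.72 RPKM in control libraries (median 2.30), from 4 to 29 reads a library. The log2 fold changes of H4c8 and H4c12 were smaller than their SEs, at -0.19 ± 0.25 and -0.18 ± 0.30. H4c8 was at 0.01 ± 0.28 and H4c12 at -0.53 ± 0.32 with the gene-read share in the model (limma adjusted p = 0.504 for H4c12). H4c12 was at -0.45 without control 1 and at -0.0016 without toxicant 1.

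The 50 genes under the filter were split in both directions. Their mean was higher in toxicant hippocampi in 25 and lower in 21, and 4 were at 0. Over all 63 members the mean was higher in 28 and lower in 31. H2ac21 was the member whose libraries did not overlap in RPKM: it had 0, 0, 0, 0, 0 and 1 read in toxicant libraries and 2, 2, 1, 2 and 2 reads in control libraries. Among the 27660 genes with any value above 0, 1.14% did not overlap with toxicant libraries lower and 0.148% with toxicant libraries higher. The ratio of its read rates, toxicant over control, was 0.111 with an exact (Clopper-Pearson) 95% interval of 0.00253 to 0.801, which covers counting error only. The interval pools reads over animals, and H2ac21 was picked because its libraries did not overlap, so it is not a test of a difference. The log2 fold change of H2ac21 in the fit with no filter was -0.31 ± 0.05 (limma adjusted p = 0.119), and a fitted value from so few reads depends on the pseudocount. Its transcript shared 62.4% of its 75-base stretches with other transcripts, the closest being Gm15444 on the other strand.

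That fit gave 4 of 59 members an unadjusted p under 0.05 in the higher direction (2.65% of all 27660 genes) and 6 in the lower direction (10% of all genes). Besides those described, and named here after their values were seen, H2ac7 had 4 reads over the toxicant libraries and 32 over the control libraries, H2bc15 had 0 over toxicant and 11 over control libraries, and H2ac6 had 125 over toxicant and 189 over control libraries. In the other direction, H2bc7 had 5 reads over the toxicant libraries and 0 over the control libraries, H3c13 had 19 over toxicant and 3 over control libraries, and H3c4 had 84 over toxicant and 56 over control libraries. The smallest limma adjusted p of these genes was 0.3004.

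The libraries with the smallest and the largest summed histone levels also had the smallest and the largest gene-read shares. The sum over the 63 genes was 78.3, 84.1, 77.1, 64.3, 82.4 and 80.7 RPKM in toxicant libraries 1 to 6, against 99.8, 63.5, 104.7, 88.4 and 92.7 RPKM in control libraries 1, 2, 3, 4 and 6. All toxicant libraries lay below every control library other than control 2, which was the lowest of all. Toxicant 4 and control 2, the libraries with the smallest sums, also held the smallest gene-read shares, 76.8% and 78.4%. Control 1 and 3, with the largest sums, held the largest shares, 89.5% and 88.4%. The other toxicant libraries did not follow that order. Toxicant 2 had the largest toxicant sum at a share of 78.7%, and toxicant 1 had the largest toxicant share, 83.8%, at a sum of 78.3 RPKM. The part of that share in the group difference was not tested beyond its use in the model.

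**Figure D3:**
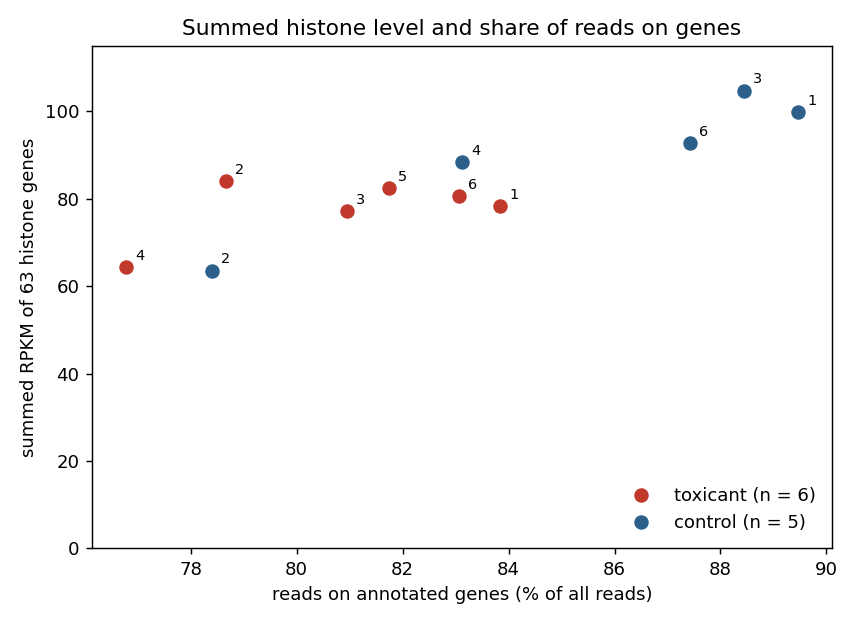
Summed RPKM of the 63 histone genes (vertical axis) against the share of reads on annotated genes in percent (horizontal axis), 1 point per library with its replicate number. Toxicant 4 and control 2 lie at the lower left, at 64.3 and 63.5 RPKM, and control 1 and 3 at the upper right, at 99.8 and 104.7 RPKM.

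Without control 2, 4 of the 13 tested histone genes were called at an adjusted p under 0.05 as lower in toxicant hippocampi, where 28% of all tested genes were, and 0 as higher, where 8.56% were. The 4 were H2bc4 (log2 fold change -0.37, limma adjusted p = 0.0354), H1f2 (-0.35, 0.0275), H3c15 (-0.42, 0.0429) and H2bc21 (-0.26, 0.0381). With the gene-read share in the model of all 11 libraries, H3c15 and H2bc21 stayed at -0.34 and -0.25, while H2bc4 was at -0.03 and H1f2 at 0.02. The smallest adjusted p in that fit among these genes was 0.289, so it called none of them.

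**Figure D4:**
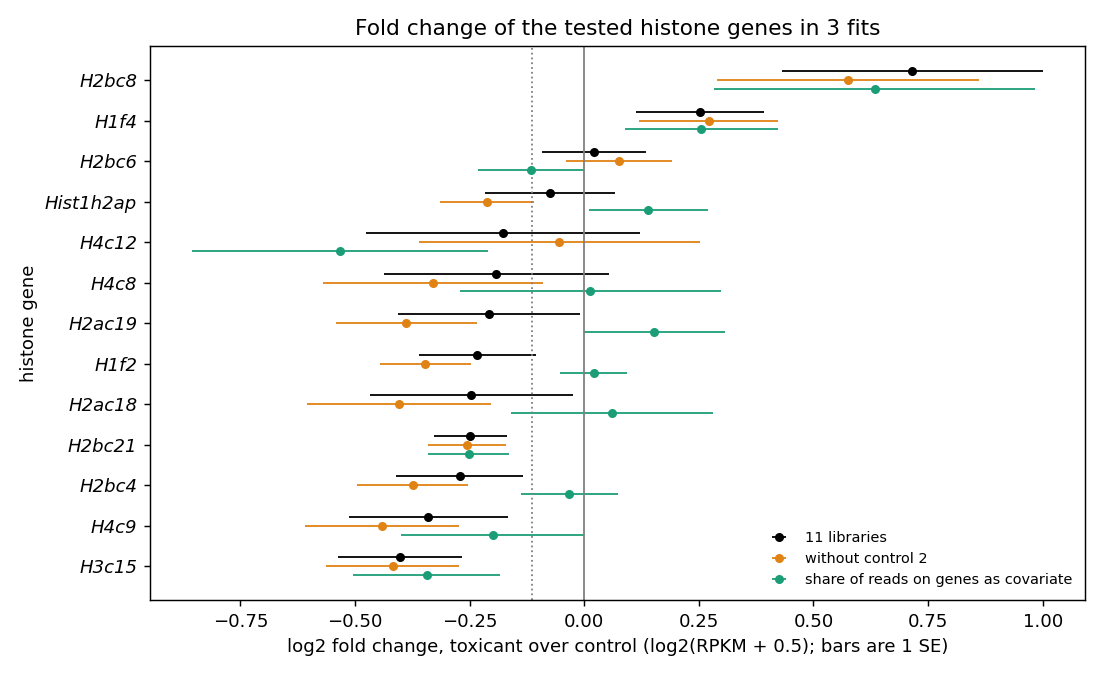
Log2 fold change, toxicant over control, of the 13 tested histone genes (points, with bars of 1 SE) in the fit of 11 libraries, after leaving out control 2, and with the gene-read share (share of reads on annotated genes) added. The dotted line marks the median of all genes in the fit of 11 libraries, -0.11; H3c15 and H2bc21 kept similar values in the 3 fits, while H2bc4, H1f2, H2ac18 and H2ac19 lay near or above 0 with that share in the model.

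Histone genes known for expression outside DNA replication had a higher summed level than the 63 genes, though not each of them was high. The sum over 11 of them was 224 to 292 RPKM in toxicant libraries and 224 to 359 RPKM in control libraries. H2az1 (older symbol H2afz), which encodes the variant H2A.Z, averaged 47.3 ± 5.57 RPKM in toxicant and 55.1 ± 13.1 RPKM in control hippocampi. Cenpa, the centromeric H3 variant, averaged only 0.249 RPKM in toxicant and 0.261 RPKM in control hippocampi. H2ax, which encodes the variant phosphorylated at DNA breaks and whose transcript also carries the hairpin, averaged 19.02 ± 2.61 RPKM in toxicant and 22.1 ± 4.97 RPKM in control hippocampi, and the linker histone gene H1f0 averaged 34.9 ± 3.77 RPKM in toxicant and 41.3 ± 9.67 RPKM in control hippocampi. H3f3b, a gene of the variant H3.3, averaged 42.5 ± 3.49 RPKM in toxicant and 45.4 ± 3.95 RPKM in control hippocampi. H3f3a, which encodes the same variant, averaged 34.9 ± 3.49 RPKM in toxicant and 43.7 ± 3.89 RPKM in control hippocampi, and its log2 fold change was -0.32 ± 0.09 (limma adjusted p = 0.201). Of the 10 tested, all had negative fold changes. Under median-ratio scaling those of H3f3b (0.019) and H2aj (0.0058) were positive, and H3f3b was also positive under quantile normalization (0.071), where H2aj was not examined. With the gene-read share in the model all but H3f3a were positive. At an unadjusted p under 0.05, 1 of the 10, H3f3a, was lower, where 17% of all tested genes were. Their median was -0.20, close to that of the 13 replication-dependent genes, and it was 0.07 with the gene-read share in the model, against 0.01 for the 13.

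The machinery of histone mRNA ran from levels near 0 to moderate levels. Zfp473 averaged 0.0412 RPKM in toxicant and 0.0380 RPKM in control hippocampi and was under the filter. Upf1 averaged 16.7 RPKM in toxicant and 18.6 RPKM in control hippocampi. Slbp averaged 2.51 ± 0.266 RPKM in toxicant and 2.47 ± 0.232 RPKM in control hippocampi, and its log2 fold change was 0.02 ± 0.08, with a sign that changed with the gene-read share in the model (-0.01). Npat, the activator of histone transcription in S phase, averaged 2.65 ± 0.630 RPKM in toxicant and 2.12 ± 0.881 RPKM in control hippocampi, and its log2 fold change of 0.30 ± 0.20 was -0.14 with the gene-read share in the model. Of 15 tested genes of histone mRNA processing and turnover, 1 was higher and 2 were lower at an unadjusted p under 0.05, with a median of 0.02. Of 14 tested histone chaperone genes, 1 was higher and 2 were lower, with a median of -0.05. Over all tested genes 3.33% were higher and 17% lower at that p.

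Genes of DNA replication and proliferation were low. Of 24 on the list, 12 passed the filter, and 0 of these were higher and 2 lower at an unadjusted p under 0.05, with a median of -0.18. The lower share is that of all tested genes, of which 17% were lower and 3.33% higher. Pcna, the sliding clamp of DNA polymerase, which also serves DNA repair, averaged 11.5 ± 1.08 RPKM in toxicant and 13.9 ± 1.73 RPKM in control hippocampi (log2 fold change -0.26 ± 0.10, limma adjusted p = 0.221). Mki67, a marker of dividing cells, averaged 0.167 ± 0.0507 RPKM in toxicant and 0.146 ± 0.101 RPKM in control hippocampi and was under the filter.

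Most of the tested RNAs known to carry no poly(A) tail, histone mRNAs aside, had positive fold changes. Of 8 tested, 7 were positive and 5 of them had an unadjusted p under 0.05, where 3.33% of all tested genes were higher at that p. Their median was 0.70, beside -0.21 for the 13 histone genes. It was also 0.70 with the gene-read share in the model, beside 0.01 for the 13 histone genes, of which 7 were then positive. Which 3′ end the histone reads came from was not tested, so the histone genes may not be a like class. Rn7sk, the RNA that holds back the elongation factor P-TEFb, had 145, 154, 121, 197, 152 and 138 RPKM in toxicant libraries and 79.3, 95.2, 60.7, 102.1 and 123 RPKM in control libraries. Toxicant libraries other than library 3 lay above every control library (log2 fold change 0.73 ± 0.17, limma adjusted p = 0.169). Rmrp (listed as Rmrp_1), the RNA of RNase MRP, averaged 19.3 ± 6.39 RPKM in toxicant and 9.72 ± 2.59 RPKM in control hippocampi (0.93 ± 0.22, adjusted p = 0.169). Rpph1, the RNA of RNase P, averaged 12.0 ± 3.90 RPKM in toxicant and 7.48 ± 2.84 RPKM in control hippocampi (0.67 ± 0.26, adjusted p = 0.223). Malat1, a nuclear RNA whose end is a triple helix and not a poly(A) tail added in the usual way, had a log2 fold change of 1.09 ± 0.45 (adjusted p = 0.230) and 0.07 with the gene-read share in the model.

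A few histone genes of the same kind carry newer symbols that the naming rule does not match. H2bu2 (older symbol Hist3h2ba) averaged 18.5 ± 2.67 RPKM in toxicant and 22.4 ± 4.14 RPKM in control hippocampi, a level next to H2bc4, and its log2 fold change was -0.26 ± 0.14. H2aw (older symbol Hist3h2a) averaged 14.9 ± 1.46 RPKM in toxicant and 15.7 ± 2.12 RPKM in control hippocampi. H4f16 (older symbol Hist4h4) averaged 0.0765 RPKM in toxicant and 0.0488 RPKM in control hippocampi. Their hairpins matched the pattern and are among the 27 found outside the 63 genes.

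Marker genes of most cell types had mostly negative fold changes, and the sums of some lists did not overlap between the groups. No sum was tested. The summed level of 7 myelinating oligodendrocyte markers was 425 to 585 RPKM in toxicant and 601 to 677 RPKM in control libraries, and these did not overlap. That of 8 microglia markers was 75.9 to 96.4 RPKM in toxicant and 97.7 to 118 RPKM in control libraries, and that of 7 endothelial markers 28.7 to 34.7 RPKM in toxicant and 36.3 to 42.2 RPKM in control libraries, again without overlap. The sum of 9 hippocampal neuron markers was 471 to 599 RPKM in toxicant and 558 to 792 RPKM in control libraries, that of 7 oligodendrocyte precursor markers 77.1 to 95.5 RPKM in toxicant and 78.2 to 132 RPKM in control libraries, and that of 8 markers of adult-born neurons 29.7 to 39.97 RPKM in toxicant and 22.96 to 43.3 RPKM in control libraries. Blood markers summed to 70.9 to 101.6 RPKM in toxicant and 97.1 to 143 RPKM in control libraries, and choroid plexus markers to 15.01 to 1802 RPKM in toxicant and 16.5 to 2887 RPKM in control libraries. None of these markers was at 0 in every library. No marker was called by limma at an adjusted p under 0.05. Of all single genes tested, 2.03% lay lower in all toxicant libraries, a share that does not apply to sums, and 17% were lower at an unadjusted p under 0.05. At that p, 7 of 9 hippocampal neuron, 6 of 7 myelinating oligodendrocyte, 5 of 8 microglia and 6 of 7 endothelial markers were lower. So were 4 of 4 tested blood, 2 of 7 oligodendrocyte precursor, 1 of 6 tested adult-born neuron and 0 of 6 choroid plexus markers. Fold changes were positive for 1 myelinating oligodendrocyte and 3 adult-born neuron markers. Under median-ratio scaling the median log2 fold change went from -0.51 to -0.40 for the myelinating oligodendrocyte markers. It went from -0.27 to -0.16 for the microglia markers and from -0.34 to -0.25 for the endothelial markers. For the hippocampal neuron markers it went from -0.33 to -0.22. The part of these cell types in the histone values was not tested.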

How the data were processed

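RNA-seq values of 12 mouse hippocampus libraries were used. The authors deposited RPKM values per gene, per the file headers, with 1 column per library matched through the code in each sample's description, and 0 columns were left unused. Per the labels' protocols, TRIzol-extracted RNA was poly(A)-selected and sequenced as single reads of 75 bases. The sources used here do not name the aligner, counting program, build or strandedness. Control 4 and 5 held identical columns and were counted once.

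Reads were recovered from the RPKM steps with the exon lengths of GENCODE M21 (GRCm38), where 41675 of 41743 gene IDs were found. All 63 histone genes came out whole within 0.05 reads. A read on a gene of 500 bases was worth 0.0574 to 0.0931 RPKM. Genes that averaged 0.5 RPKM or more over the 11 libraries were tested on log2(RPKM + 0.5) with limma 3.58.1 in R 4.3.3 (lmFit, eBayes with a trend, two-sided), adjusted by Benjamini-Hochberg over 13493 genes with a threshold of 0.05. The script was tested on simulated data.

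Older and newer histone symbols were joined by gene ID in GENCODE M21. Hairpins and 75-base stretches were read from its transcripts, and promoters from the RefSeq table for GRCm38.p6, with Python 3.11.15, pandas 2.3.3 and matplotlib 3.10.9. The genes named were the 12 members with the highest mean, the 5 tested members with the smallest p in each direction, members whose libraries did not overlap, and 13 genes fixed by name, of which H2afz and H2afx are listed as H2az1 and H2ax; others are said to be chosen after their values were seen or belong to a list described whole. The members, lists and tests were chosen with earlier results of these data known. The alternatives were other pseudocounts and filters, median-ratio scaling, quantile normalization, limma voom on recovered reads, the gene-read share in the model, the replicate number as a block, all 12 libraries, an exact rank-sum permutation test and leaving out each library; summing H2ac18 and H2ac19 was added after seeing the data.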

Additional observations from a re-analysis of the deposited data

Results flagged for a closer look

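A single library stood apart from the other 5 of its group by Dixon's criterion in 4 of the 56 groups of values examined, and chance flags about 1 in 20 such groups. H2bc4 was lowest in toxicant 4 at 15.4 RPKM, beside 21.3 to 24.3 RPKM in the other toxicant libraries. The summed level of the 63 histone genes was lowest in the same library at 64.3 RPKM, beside 77.1 to 84.1 RPKM, and this library also held the smallest share of reads on genes, 76.8%. H2ac21 was highest in toxicant 6 at 0.0794 RPKM, from 1 read, beside 0 in the others. Npat was lowest in toxicant 1 at 1.48 RPKM, beside 2.57 to 3.19 RPKM, and toxicant 1 held the largest share of reads on genes of its group, 83.8%.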

How the results depend on the processing

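Counts of histone genes called at an adjusted p under 0.05 were 0 in both directions under every alternative except leaving out 1 library, where the lower count ran from 0 to 4, with 4 without control 2 (1155 of all genes were then higher and 3774 lower, beside 0 and 0). At an unadjusted p under 0.05, the higher count of 1 of 13 was 4 of 59 with no filter and 2 with median-ratio scaling. It was 0 with the gene-read share, the replicate block, all 12 libraries and the rank-sum test, and 0 to 2 without 1 library. The lower count of 2 of 13 was 6 of 59 with no filter and 4 with all 12 libraries. It was 1 with median-ratio scaling, voom, the gene-read share and the rank-sum test, and 2 to 6 without 1 library. Over all 13493 genes the unadjusted split was 449 higher and 2288 lower, against 1161 and 708 with median-ratio scaling. It was 719 and 1458 with voom, 586 and 1232 with the gene-read share, and 122 and 1308 with the rank-sum test. With all 12 libraries it was 408 and 2535, and with no filter 732 and 2772 of 27660 genes. The lower count of 6 without 1 library arose without control 2, where 1736 of all genes were higher and 5381 lower. The median of -0.21 over 13 members was -0.10 with median-ratio scaling and -0.12 with quantile normalization. It was 0.014 with the gene-read share in the model and -0.33 to -0.16 without 1 library. With no filter the median was -0.011, but over a different set of 59 members, beside -0.015 over all genes of that fit. With the gene-read share the sign turned for H2ac19 (0.15), H1f2 (0.021), H2ac18 (0.061), Hist1h2ap (0.14), H4c8 (0.014), H2bc6 (-0.12), H2az1 (0.15), H2ax (0.13), H3f3b (0.039), H1f0 (0.092), Slbp (-0.015) and Npat (-0.14). It also turned for Hist1h2ap (0.025) and H3f3b (0.019) with median-ratio scaling, H3f3b with quantile normalization (0.071), H2bc6 with all 12 libraries (-0.024) and Slbp with the replicate block (-0.0010). Without 1 library Hist1h2ap ran from -0.21 to 0.0092, H2bc6 from -0.049 to 0.090 and Slbp from -0.033 to 0.059. The cause was not tested. Of the values of single genes, 511 kept their direction and side of the threshold, 25 changed sign and 12 passed the threshold only without control 2. The sum of H2ac18 and H2ac19 had a log2 difference of -0.19. Same-numbered libraries did not pair (correlations of 0.62, 0.28, -0.30, 0.32 and 0.27 for numbers 1, 2, 3, 4 and 6), and the replicate block gave 0 higher and 2 lower members at an unadjusted p under 0.05, beside 1064 and 3600 over all genes. Most histone genes had too few reads for a test at this depth.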
